A study of Mus musculus with 10 samples.

Results

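Notch targets and modulators were followed in epithelial cells sorted from the mouse mammary gland, as a set of 10 genes fixed by name: the transcriptional repressors Hes1, Hes6, Hey1 and Heyl, the feedback inhibitor Nrarp, the DNA-binding factor Rbpj, the Fringe glycosyltransferases Lfng and Mfng, and the Deltex E3 ubiquitin ligases Dtx1 and Dtx4. Each was represented by the brightest probe set that the array annotation assigns to that gene alone. All 10 were found and all 10 passed the filter on dim probe sets, among 15815 genes tested. No measured value entered the choice of probe set other than its mean brightness over all arrays.

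The cells came from virgin female littermates of 8 to 12 weeks, control or Pygo2 SSKO. Pygo2 encodes a PHD-finger co-factor of beta-catenin. In the title of the series the mutant cells are named Pygo2-null; the allele, the Cre driver and what SSKO stands for were not stated in the labels. After collagenase digestion, cells carrying CD31, CD45 or TER119 were gated out, and CD24-positive cells were split into a CD29-high fraction (MaSC in the labels, basal in what follows) and a mature luminal fraction low for CD29 and negative for CD61. Control mice gave 4 basal and 3 luminal arrays and SSKO mice gave 3 basal arrays, each labelled as a biological replicate. Whether a sample pooled several animals is not stated, so p-values reflect only how far these samples spread.

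Notch receptors are cut when they bind a ligand on a neighbouring cell, and the freed intracellular domain enters the nucleus and joins RBPJ, which turns from repressor to activator at HES, HEY and NRARP genes. Fringe enzymes add sugars to the receptor and so change which ligands activate it, NRARP limits the activity of the nuclear complex, and Deltex proteins act on the receptor's trafficking and turnover. HES6 is the exception among the repressors, since it antagonises HES1. In the mammary gland, Notch signalling is known for promoting the luminal fate.

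Promoters are shown for 3 members, to place the letters that RBPJ and HEY proteins recognise in front of a gene of the nuclear complex, a Fringe gene and a feedback inhibitor. The 250 bases before the annotated start site were read from RefSeq (GRCm38.p6) on the gene's strand; 5 of the 10 members had an entry, and Hes1, Hey1, Heyl, Mfng and Dtx4 had none. Capitals mark TGGGAA on either strand (TTCCCA when read on the other), the core bound by RBPJ, and CACGTG, an E-box bound by HEY factors. The windows are chr5:53590096-53590345 on the + strand for Rbpj (the first of 2 annotated starts), chr5:140607091-140607340 on the + strand for Lfng and chr2:25180508-25180757 on the + strand for Nrarp.
Rbpj: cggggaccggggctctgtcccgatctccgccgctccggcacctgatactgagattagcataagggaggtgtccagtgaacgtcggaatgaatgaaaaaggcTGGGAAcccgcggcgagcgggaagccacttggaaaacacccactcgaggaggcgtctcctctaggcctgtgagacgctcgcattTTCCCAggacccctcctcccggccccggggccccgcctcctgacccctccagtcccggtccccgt
Lfng: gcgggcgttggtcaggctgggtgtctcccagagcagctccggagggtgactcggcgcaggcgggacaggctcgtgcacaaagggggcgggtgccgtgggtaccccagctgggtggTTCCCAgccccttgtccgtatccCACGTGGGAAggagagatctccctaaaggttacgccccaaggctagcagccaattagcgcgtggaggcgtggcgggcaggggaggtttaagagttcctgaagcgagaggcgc
Nrarp: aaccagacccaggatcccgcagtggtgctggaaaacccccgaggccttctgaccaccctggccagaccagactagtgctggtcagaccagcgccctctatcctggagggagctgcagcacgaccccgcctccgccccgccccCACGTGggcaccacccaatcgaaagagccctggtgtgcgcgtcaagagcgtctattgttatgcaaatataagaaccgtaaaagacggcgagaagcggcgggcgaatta

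The Rbpj window held 2 RBPJ cores, which began 149 and 65 bases before the start site. The Lfng window also held 2, at 135 and 108 bases, and the nearer one was part of the longer site GTGGGAA and overlapped an E-box that began at 112 bases. The Nrarp window held no RBPJ core and 1 E-box, at 108 bases. Of 32851 promoter windows of this length, 21.6% held TGGGAA, 5.42% held GTGGGAA and 6.02% held CACGTG, with both strands counted. Neither motif was found in the windows of Hes6 and Dtx1. These matches describe the letters only, and binding was not measured.

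Expression is given as log2(intensity + 16), and differences and folds are on that scale, which understates changes of dim genes. Probe sets differ in response, so levels are compared between arrays and never between genes. Array medians lay between 205 and 228 in intensity. Pygo2, the targeted gene, lay at 8.11 to 9.09 in control basal and 5.86 to 6.99 in SSKO basal arrays, and its fall of 2.34 (SE 0.32, limma adjusted p = 0.0441) lost its call in 12 of 22 alternative analyses; whether its probe set lies in the deleted part was not determined. Basal markers (10 of 10 measured, Acta2 and Krt17 the brightest) averaged 12.58 to 12.78 over all basal arrays, and 7.94, 7.38 and 9.53 in luminal arrays 1 to 3, so luminal array 3 carried the most basal signal. Mature luminal markers (8 of 10 measured, Krt8 and Krt18 the brightest) averaged 9.34 to 10.41 in basal and 13.12 to 13.22 in luminal arrays. Luminal progenitor markers averaged 7.66 to 8.23 in basal and 9.72 to 10.48 in luminal arrays. Against control basal cells, Kit, Elf5, Cd14, Aldh1a3 and Ltf of that list were called higher in luminal cells and Itgb3, which encodes CD61, lower. Endothelial markers (14 of 14 measured) on average stood highest in control basal array 1 (9.85), SSKO basal array 1 (10.76) and SSKO basal array 3 (9.74). They averaged 8.12 to 8.76 in the other 4 basal and 7.94 to 8.38 in the luminal arrays. Among them Vwf differed, at 7.45 in SSKO basal array 3 and 9.31 to 9.76 in the luminal arrays. Eng and Egfl7 had luminal means near their control basal means (10.54 against 10.54 and 8.36 against 8.38). The brightest members of that list, Eng and Cdh5, were above the filter level of 6.74 on every array.

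**Figure D1:**
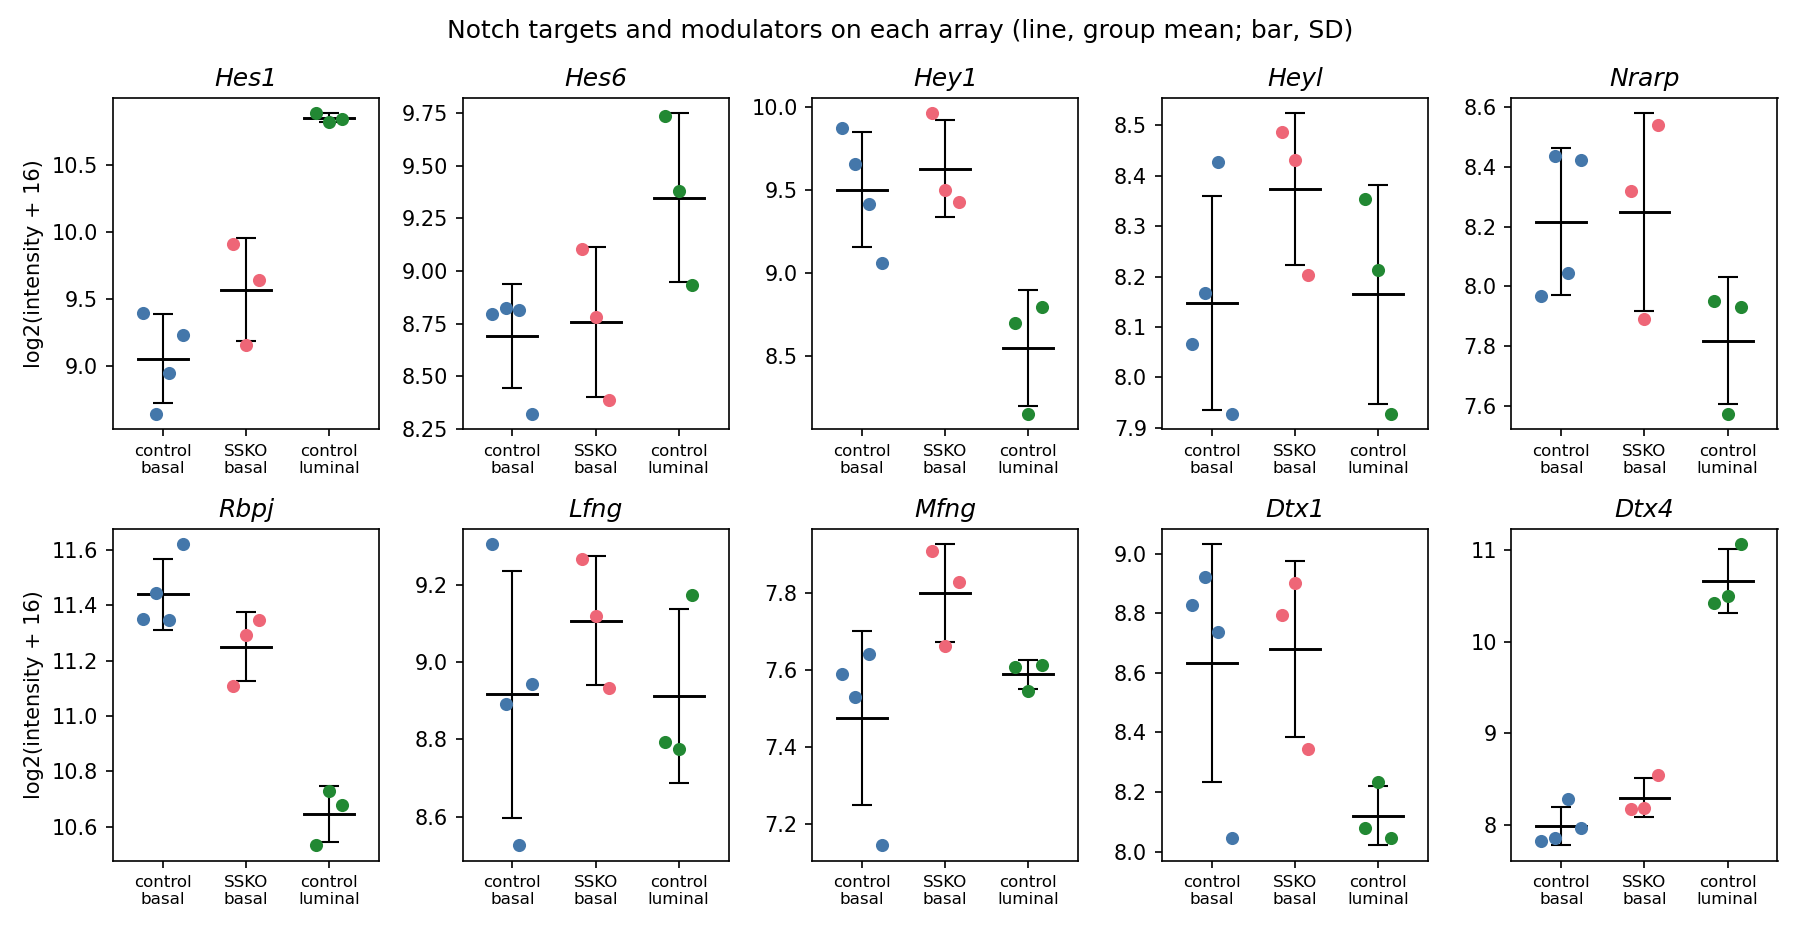
Level of each of the 10 genes as log2(intensity + 16) on every array, by group; points are arrays, horizontal lines group means and bars the SD. Hes1 and Dtx4 lie higher in all 3 luminal arrays than in any basal array, Rbpj and Hey1 lower, and the SSKO points overlap the control basal points for every gene except Mfng. Each panel has its own vertical range.

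Mature luminal cells were set against basal cells of control mice to ask how the 2 compartments differ. Dtx4, Hes1 and Hes6 were higher in luminal cells, Hey1 and Rbpj were lower, and Heyl, Nrarp, Lfng, Mfng and Dtx1 did not pass. Thus 5 of 10 genes were called, where 44.3% of all genes tested were called in this comparison. The 3 higher genes stand beside a background of 24.6% and the 2 lower ones beside 19.7%, so the share of members called was close to that of genes at large. The median difference over the 10 was 0.0070, against 0.067 over all genes, and 5 of the 10 were above 0. These are bulk populations, in which fewer cells of a type and less RNA per cell cannot be told apart.

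Among the repressors, Hes1, the classical Notch target, was raised in luminal cells. Its levels were 9.40, 8.64, 8.95 and 9.23 in control basal arrays 1 to 4, and 10.88, 10.82 and 10.84 in luminal arrays 1 to 3. The luminal values were nearly identical and lay above every basal array, SSKO included. The mean went from 9.05 ± 0.33 (SD, n = 4) to 10.85 ± 0.032 (SD, n = 3), a rise of 1.79 (SE 0.21, limma adjusted p = 3.18e-05) or 3.47-fold. Hey1, a related repressor that also acts downstream of Notch and is known from arterial endothelium, went the other way. It stood at 9.87, 9.66, 9.42 and 9.06 in control basal and at 8.70, 8.15 and 8.80 in luminal arrays, without overlap. Its fall of 0.95 on the log2 scale (SE 0.22, limma adjusted p = 0.00473) put the basal level at 1.94 times the luminal one. With the endothelial marker level as a covariate the Hey1 difference was -0.80 (limma adjusted p = 0.0140), and without the 3 arrays brightest for those markers it was -0.83 (0.0175).

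Hes6, the antagonist of HES1, was also higher in luminal cells, with less margin. Its levels were 8.80, 8.82, 8.82 and 8.32 in control basal arrays 1 to 4 and 9.73, 9.38 and 8.93 in luminal arrays 1 to 3. The groups did not overlap, but luminal array 3 lay only just above the basal values. The rise of 0.66 (SE 0.22, limma adjusted p = 0.0317), or 1.58-fold, lost its call without control basal array 4 (adjusted p = 0.0809), luminal array 1 (0.151) or luminal array 2 (0.0828). Heyl, the third member of the HEY family and known from vascular smooth muscle, had a difference of 0.017 with a 95% interval of -0.32 to 0.35. It ranged from 7.93 to 8.43 in control basal and from 7.93 to 8.35 in luminal arrays, and its sign changed in 6 of 23 alternatives.

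Rbpj, through which all Notch receptors act on DNA, was lower in luminal cells. Its levels were 11.35, 11.44, 11.35 and 11.62 in control basal arrays 1 to 4, and 10.53, 10.73 and 10.68 in luminal arrays 1 to 3. The spread within either group was small beside the gap between them. The fall of 0.79 (SE 0.12, limma adjusted p = 2.42e-04) put the basal level at 1.73 times the luminal one. A second Rbpj probe set stayed between 5.30 and 6.15 on all arrays, under the filter level, and was not tested. Nrarp, the feedback inhibitor, had a difference of -0.40 (SE 0.19, limma adjusted p = 0.112). Its luminal arrays, at 7.95, 7.57 and 7.93, all lay below the control basal range of 7.97 to 8.44, by a margin smaller than the SD of either group.

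For Lfng and Mfng, the Fringe genes of the set, no difference between the compartments was detected. Rfng, a Fringe gene outside the set, was called lower in luminal cells (-0.66, SE 0.11, limma adjusted p = 6.36e-04). Lfng, which favours activation by Delta-type ligands, ranged from 8.53 to 9.30 in control basal and from 8.78 to 9.17 in luminal arrays. Its difference of -0.0032 had a 95% interval of -0.41 to 0.40 and changed sign in 8 of 23 alternatives. Mfng, its relative, had a difference of 0.11 with a 95% interval of -0.19 to 0.41.

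Of the Deltex ligases, Dtx4 had the largest difference of the 10 genes and Dtx1 had the opposite sign. Dtx4 was 7.83, 7.87, 8.29 and 7.97 in control basal arrays 1 to 4 and 10.43, 10.50 and 11.06 in luminal arrays 1 to 3. All 3 luminal arrays lay above every basal array, SSKO included. The mean rose from 7.99 ± 0.21 (SD, n = 4) to 10.66 ± 0.35 (SD, n = 3), by 2.68 (SE 0.18, limma adjusted p = 5.69e-07) or 6.39-fold. Dtx1 was 8.83, 8.92, 8.74 and 8.04 in control basal and 8.08, 8.23 and 8.05 in luminal arrays. Control basal array 4 alone did not lie above the luminal arrays and fell just below the lowest of them. Its difference of -0.51 (SE 0.21, limma adjusted p = 0.0724) did not pass, and without that array it was -0.71 and passed (0.00479). Control basal array 4 had the lowest control basal value for 5 members (Hes6, Hey1, Heyl, Mfng and Dtx1) and the highest for Rbpj.

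The calls of Hes1, Hey1, Rbpj and Dtx4 held in all 23 alternative analyses, which leave out each array in turn and change the filter, pseudocount, normalization or model. Marker levels of other cell types also differed between the sorted populations. Fibroblast markers (8 of 8 measured, Dcn and Col1a2 the brightest) averaged 10.14 to 11.50 in control basal and 7.23 to 7.87 in luminal arrays. Pericyte markers (10 of 10, Anpep and Mcam the brightest) averaged 8.80 to 8.90 and 7.85 to 8.03. Of the pericyte markers, Anpep had the higher mean in luminal arrays (11.62 against 11.14), as did the dim Higd1b, and the others had lower ones. In luminal cells 3 of the fibroblast and 2 of the pericyte markers had means under the filter level, against 0 and 1 in control basal cells. Their part in the lower Hey1 and Rbpj values was not tested. Luminal array 3, with its basal marker level of 9.53, lay between the other luminal arrays for Hes1 and Rbpj and was the highest of them for Hey1.

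**Figure D2:**
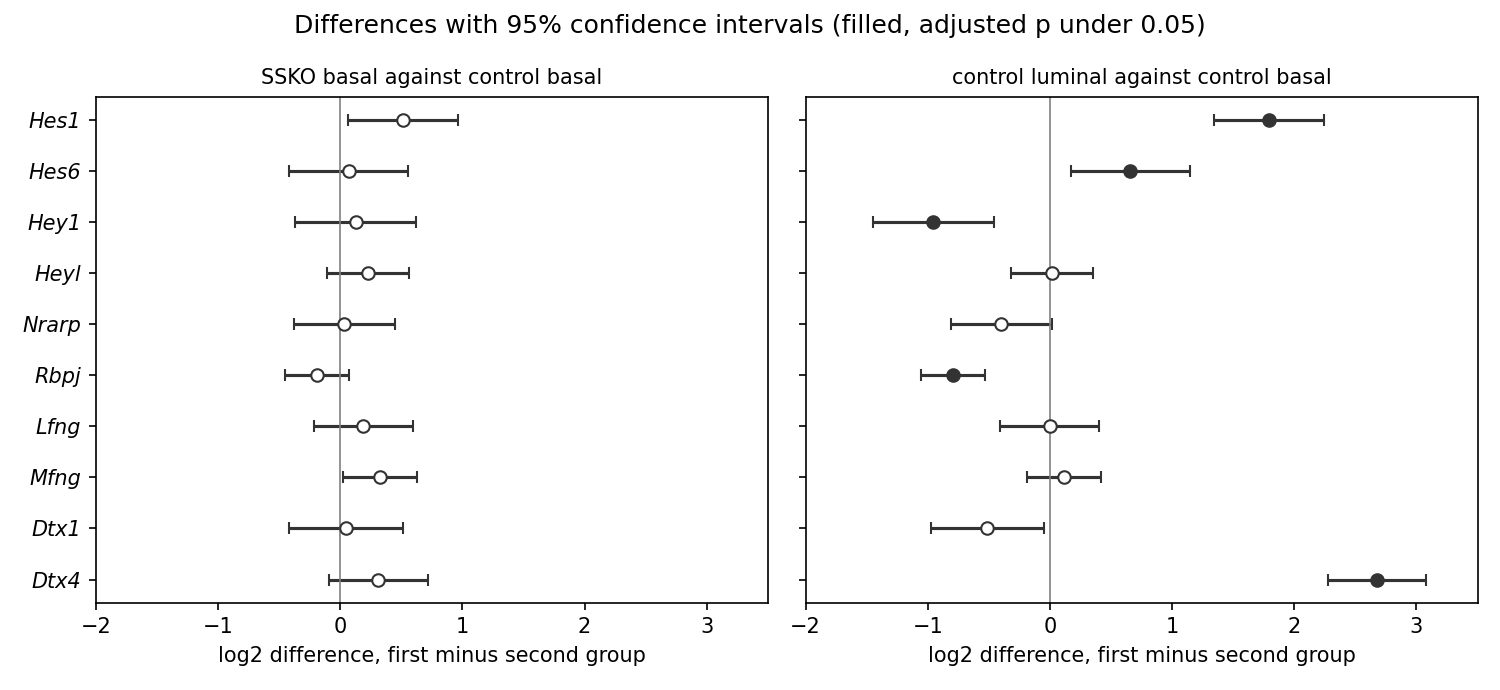
Log2 difference with its 95% confidence interval for each gene, SSKO minus control basal on the left and luminal minus control basal on the right; filled points passed an adjusted p of 0.05. On the left no point is filled and all lie between -0.19 and 0.51; on the right 3 filled points lie above 0 and 2 below. Both comparisons share the 4 control basal arrays.

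SSKO basal cells were set against control basal cells to ask what changes when Pygo2 is lost. None of the 10 genes was called, where 0.0379% of all genes tested were called (6 of 15815). At an unadjusted p under 0.05 limma gave 2 of the 10, Hes1 and Mfng, against 3.03% of all genes, and each had an adjusted p of 1.00. The 95% intervals of all 10 genes, which are not adjusted for the number of genes, lay between a 0.731-fold and a 1.95-fold level in SSKO cells. The median difference over the 10 was 0.16 and 9 were above 0, against 0.0078 and 52.1% over all genes. The signs of Hes6, Hey1, Nrarp and Dtx1 changed in at least 4 of 23 alternatives each, so the count above 0 was not stable.

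Hes1 had the largest difference. Its SSKO levels were 9.91, 9.16 and 9.64 in arrays 1 to 3, against 8.64 to 9.40 in control basal arrays. SSKO arrays 1 and 3 lay above all controls and SSKO array 2 lay within their range, while all 3 stayed below the luminal arrays. The mean was 9.57 ± 0.38 (SD, n = 3) against 9.05 ± 0.33 (SD, n = 4), a difference of 0.51 (SE 0.21, 95% interval 0.062 to 0.97). The brightest Hes1 array of each basal group was also its brightest for endothelial markers, namely control array 1 and SSKO array 1. The difference was 0.30 with the endothelial level as a covariate and 0.21 without the 3 arrays brightest for those markers, which leaves 1 SSKO array that is assumed to vary like the other groups. It was 0.34 without SSKO array 1, 0.72 without SSKO array 2 and 0.57 without control basal array 4 or when blocked by replicate number. The Hes1 difference passed in none of the 23 alternatives. The mean of the mature luminal markers also stood higher in SSKO arrays, at 9.99 to 10.41 against 9.34 to 9.84 in control basal arrays. These means did not overlap. Singly, Krt19, Foxa1 and Cited1 did not overlap either, where 4.46% of all genes tested had no overlap. Cited1 was called (1.56, limma adjusted p = 0.0103), and Krt19 (0.0934) and Foxa1 (0.105) did not pass. Krt8, Krt18, Pgr and Prom1 overlapped, and Esr1 overlapped with a lower SSKO mean (8.92 against 9.25). Pericyte markers averaged 9.18, 8.89 and 9.15 in SSKO arrays 1 to 3, against 8.80 to 8.90 in control basal arrays. Singly, Pdgfrb, Cspg4 and Anpep had lower SSKO means and the other pericyte markers higher ones. Fibroblast markers averaged 10.28, 9.89 and 10.49 in SSKO arrays 1 to 3, against 10.14 to 11.50. The part of endothelial cells, pericytes, fibroblasts and mature luminal markers in the Hes1 values was not tested.

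Mfng was the 1 gene of the 10 whose SSKO and control basal arrays did not overlap, where 4.46% of all genes tested had no overlap. Its levels were 7.91, 7.66 and 7.83 in SSKO arrays 1 to 3, and 7.59, 7.53, 7.64 and 7.14 in control basal arrays 1 to 4. The lowest SSKO array exceeded the highest control array by less than 1 SD of either group. The difference was 0.32 (SE 0.14, 95% interval 0.021 to 0.63) and 0.21 without control basal array 4. The luminal arrays, at 7.55 to 7.61, lay below all SSKO arrays and inside the control basal range. Dtx4 was 8.17, 8.19 and 8.54 in SSKO arrays, which overlapped control basal array 3 at 8.29, and its difference of 0.31 (SE 0.18) had a 95% interval of -0.089 to 0.71.

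**Figure D3:**
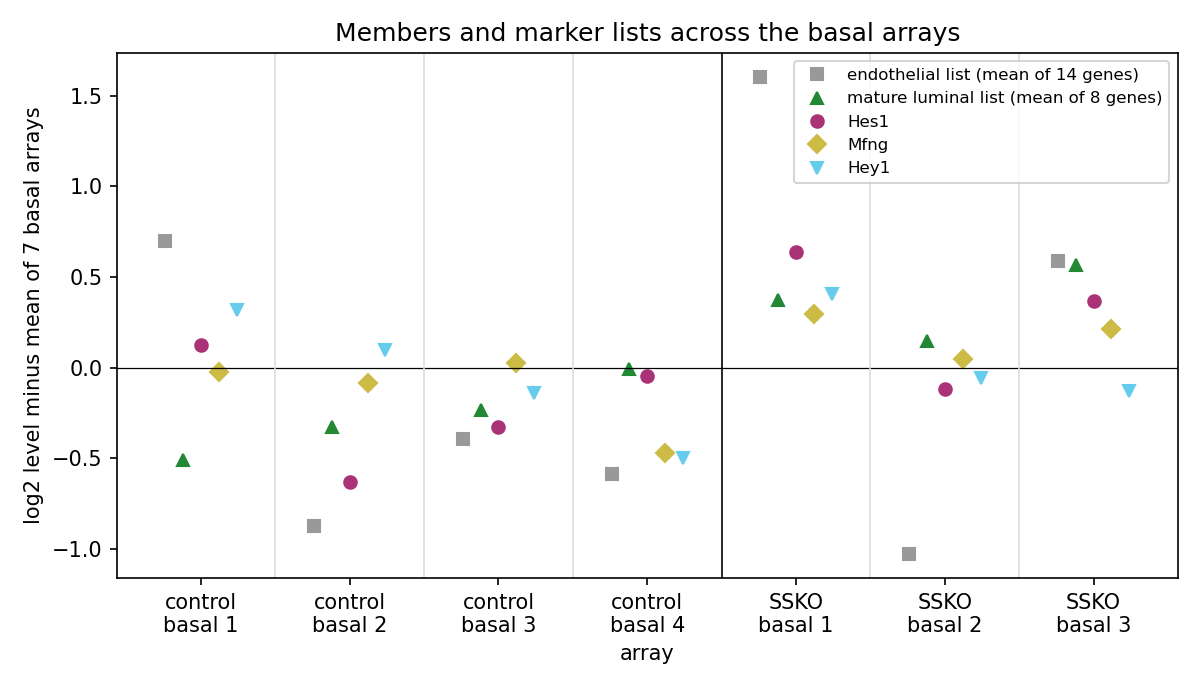
Log2 level after subtraction of the average over the 7 basal arrays, for Hes1, Mfng and Hey1 and for the mean of 14 endothelial and 8 mature luminal markers, on each basal array (left of the black line, control; right, SSKO). The endothelial list spans -1.03 to 1.60 and the Hes1 points span -0.63 to 0.64; both are highest in SSKO array 1.

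The remaining genes gave small values. Rbpj was the only member with a lower SSKO mean, at 11.11, 11.29 and 11.35 against 11.35 to 11.62 in control basal arrays, a difference of -0.19 (SE 0.12, 95% interval -0.45 to 0.073). Its SSKO arrays stayed above all luminal arrays. Heyl (0.23, SE 0.15) and Lfng (0.19, SE 0.18) kept a positive sign in all 23 alternatives without passing. Hey1 (0.13, SE 0.22), Hes6 (0.069, SE 0.22), Dtx1 (0.048, SE 0.21) and Nrarp (0.032, SE 0.19) differed by less than the SD of either group. Nrarp spanned 7.89 to 8.54 in SSKO arrays, wider than its control basal range of 7.97 to 8.44.

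By mean level, control basal, SSKO basal and luminal cells came in that rising order for Dtx4, Hes1 and Hes6, and in that falling order for Rbpj. The 2 basal groups were neighbours in that order and overlapped for these 4 genes, and for Hes6 the SSKO basal and luminal arrays overlapped as well. For Hey1, Nrarp and Dtx1 the luminal mean was lowest and the basal groups overlapped, and for Heyl, Lfng and Mfng the 3 means lay close together, with no call in either comparison. The order of SSKO basal and luminal cells was not tested.

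The rest of the pathway gives the setting for these genes. Of 60 further Notch genes listed and grouped by role, 57 were measured. Of these, 55 were tested, since Dll3 and Hey2 fell under the filter. In luminal against basal cells 16 were higher, 19 lower and 20 did not pass, beside backgrounds of 24.6% higher and 19.7% lower over all genes. Their median was -0.065, against 0.067 over all genes. In SSKO against control basal cells none was called, 3 had an unadjusted limma p under 0.05 (Notch3, Hes2 and Ccnd1), beside 3.03% of all genes, and the median was -0.013, against 0.0078 over all genes. Ccnd1 stood at 11.52, 11.28 and 10.91 in SSKO arrays and at 11.53, 9.50, 9.92 and 10.44 in control basal arrays, which overlap, with a difference of 0.89 (SE 0.38, limma adjusted p = 1.00).

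Of 7 ligands tested, 4 fell in luminal cells (Dll1, Jag2, Jag1 and Dlk1) and 0 rose, where 19.7% of all genes fell. Dll1, a Delta-type ligand, was 11.38 to 11.71 in control basal arrays and 6.39, 5.75 and 7.62 in luminal arrays 1 to 3, and fell by 4.94 (SE 0.34, limma adjusted p = 5.96e-07). Its luminal mean of 6.59 lay under the filter level, so the full size of the fall is not known. Jag2, a Jagged ligand, fell by 3.48 (SE 0.28, limma adjusted p = 1.79e-06) and was likewise highest in luminal array 3, at 8.29 against 7.12 and 6.99. Of 8 genes of receptor cleavage tested, 7 rose and 0 fell, where 24.6% of all genes rose. Whether either role differs from genes at large was not tested. Adam10, the protease of the outer cut, rose by 2.33 (SE 0.17, limma adjusted p = 8.72e-07), and Psen2, a catalytic subunit of gamma-secretase, which makes the cut inside the membrane, rose by 1.50 (SE 0.23, limma adjusted p = 2.98e-04).

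Among the 4 receptors, Notch3 rose and Notch2 fell. Notch3 was 8.30, 8.28, 8.71 and 8.63 in control basal and 10.95, 10.76 and 11.23 in luminal arrays, a rise of 2.50 (SE 0.17, limma adjusted p = 6.45e-07) that ran in the direction of Hes1 and Dtx4. In SSKO arrays Notch3 stood at 9.08, 8.74 and 9.26, above every control basal array. Its difference of 0.55 (SE 0.17, limma adjusted p = 1.00) did not pass. Notch3 and Hes2 were the 2 of 55 other pathway genes without overlap between SSKO and control basal arrays, beside 4.46% of all genes tested. Hes2, a HES relative, was the other gene with the smallest p on the higher side in SSKO cells, at 0.38 (SE 0.16), and Mib1, a ligand-activating ubiquitin ligase, and Spen, an RBPJ co-repressor, on the lower side, at -0.24 (SE 0.13) and -0.21 (SE 0.13); none passed.

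Other roles were mixed in luminal cells, where 44.3% of all genes tested were called, 24.6% higher and 19.7% lower. Whether any of these roles differs from genes at large was not tested. Of 7 co-repressors tested, 2 rose (Cir1 and Tle2) and 4 fell (Tle1, Tle3, Tle4 and Spen), and of 7 co-activators, 2 rose (Kat2b and Maml3) and 2 fell (Maml1 and Maml2). Of 11 genes of endocytosis and turnover, 2 rose (Dtx3l and Mib2) and 4 fell (Numbl, Fbxw7, Mib1 and Dtx2), with Numbl, a relative of the Notch inhibitor Numb, falling by 2.42 (SE 0.26, limma adjusted p = 1.85e-05). Of 3 further glycosylation genes, 0 rose and 2 fell (Poglut1 and Rfng), and of the other 4 HES and HEY factors tested none was called, with 0 at an unadjusted limma p under 0.05. Among 4 further targets tested, Ccnd1 and Gata3 rose and Snai2 and Myc fell. Snai2, a basal transcription factor, fell by 4.82 (SE 0.58, limma adjusted p = 4.41e-05), and Ccnd1, a G1 cyclin, rose by 1.11 (SE 0.38, limma adjusted p = 0.0334). The Ccnd1 call was lost in 7 of 23 alternatives, among them those without control basal array 2, 3 or 4 (adjusted p = 0.0788, 0.0859 and 0.0517) or without luminal array 1, 2 or 3 (0.0631, 0.0755 and 0.0935). Snai2 was 9.23 in luminal array 3 against 6.51 and 6.24 in the other luminal arrays, as Dll1 and Jag2 were, beside the higher basal marker level of that array.

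**Figure D4:**
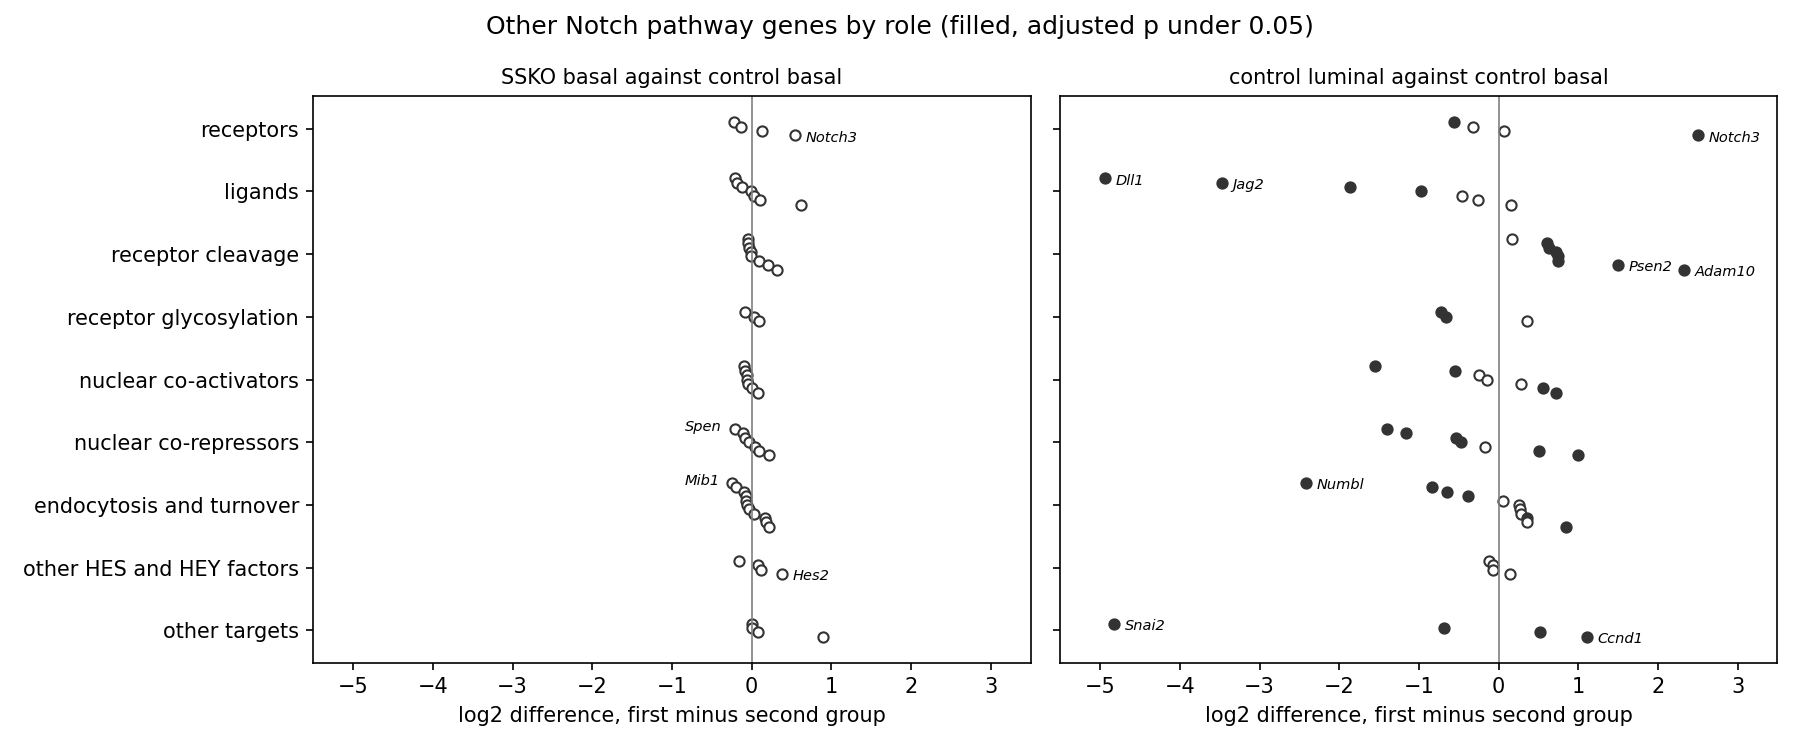
Log2 difference of each of 55 other Notch pathway genes by role, SSKO minus control basal on the left and luminal minus control basal on the right; filled points passed an adjusted p of 0.05 and named genes are those given in the text. On the right 7 of 8 cleavage genes are filled above 0 and 4 of 7 ligands are filled below 0; on the left no point is filled.

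For the 5 members called in luminal cells, the genes with the most similar profile were found as those with the smallest root mean square difference between log2 profiles over the 10 arrays, after each profile was centred on its own mean. Among 14561 named genes, Dtx4 was closest to Sytl5, which encodes a synaptotagmin-like protein (0.13), and Cfap126 (0.19). Hes1 was closest to Rnf181, a ubiquitin ligase (0.17), and Plcb4, a phospholipase C (0.17). Hes6 was closest to Psenen, a gamma-secretase subunit and thus a gene of the same pathway list (0.12), and Trappc2l (0.14). Hey1 was closest to Mt1, a metallothionein (0.12), and Kremen1, a Dickkopf receptor (0.17). Rbpj was closest to Kpna1, an importin (0.060), and Cdk5rap2, a centrosome protein (0.074).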

How the data were processed

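Total RNA from sorted cells was hybridised to Affymetrix arrays, 1 per sample. The authors deposited 1 linear intensity per probe set and array. Affymetrix Expression Console 1.1 and PLIER 2.0 are named, per the submitters' processing notes, without the role of each; for a normalization between arrays, no method was found in the labels, and none was assumed. The number of arrays limits the precision.

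Of 28815 probe sets, 21780 had 1 gene symbol in the platform annotation, 1605 several and 5430 none; 21689 symbols matched the current RefSeq gene table and 91 were kept. Values were log2(intensity + 16). The dimmest 25% of probe sets were dropped (mean under 6.74) and each gene kept its brightest probe set. Means of the 3 groups were fitted to all 10 arrays with limma 3.58.1 in R 4.3.3 (7 residual degrees of freedom), with two-sided tests and Benjamini-Hochberg adjustment over 15815 genes and calls were made at an adjusted p under 0.05. The fit was tested on simulated data. Alternatives changed the filter, pseudocount, normalization, variance model, probe set rule, covariates and samples.

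The members, gene lists and tests were chosen with earlier results of these data known. All members are named, with up to 4 called pathway genes of largest difference per comparison and direction (2 by p-value where there were no calls), the 2 closest profiles of each member called in luminal cells, and the 2 brightest of each marker list. Immune, adipocyte and luminal progenitor markers were also measured: their means over control basal, SSKO basal and luminal arrays were 7.02 to 7.40, 7.29 to 7.64 and 6.72 to 7.02 for immune (brightest Cd74 and Cd3e), 7.46 to 7.95, 7.65 to 8.26 and 7.43 to 7.58 for adipocyte (Fabp4 and Pparg), and 7.67 to 8.23, 7.66 to 8.23 and 9.72 to 10.48 for luminal progenitor genes (Ltf and Aldh1a3). Other pathway genes behind small counts were named after their values were seen. Plots used matplotlib 3.10.9 (Python 3.11.15).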

Additional observations from a re-analysis of the deposited data

Results flagged for a closer look

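Hes6 in control basal arrays had 1 array far from the others: array 4, at 8.32, lay below arrays 1 to 3 at 8.80 to 8.82, and this gap made up 0.947 of the whole range, above Dixon's 95% critical value for 4 samples. Chance alone passes this value in about 1 of 20 groups, and 10 genes were examined. The luminal groups and SSKO groups, of 3 arrays each, were not examined this way.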

How the results depend on the processing

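The counts of members called stayed at 0 in SSKO basal cells in all 23 alternatives and between 4 and 6 in luminal cells, where 7001 genes were called in all (5944 to 7538). The 35 other pathway genes called in luminal cells became 25 to 35. The count of all genes called in SSKO basal cells went from 6 to 3 after quantile normalization, to between 1 and 27 when single arrays were left out (27 without SSKO array 2, 1 without SSKO array 3 and 2 without control basal array 2), and to 0 (207 at an unadjusted limma p under 0.05) without the 3 basal arrays brightest for endothelial markers, an alternative chosen after seeing the data. Signs that turned all belonged to differences that did not pass. No other group has an array numbered 4, so the replicate block takes control basal array 4 out of both comparisons, and its differences equal those without that array. In SSKO basal cells Hes6 went to -0.055 with the replicate block and -0.0057 with the endothelial covariate, Hey1 to -0.020 and -0.016, Dtx1 to -0.15 with the block, and Nrarp to -0.020 after quantile normalization, -0.014 after median centring, -0.0088 with the covariate and -0.41 without those 3 arrays. With single arrays left out they ranged from -0.10 to 0.25, -0.040 to 0.25, -0.15 to 0.22 and -0.11 to 0.21. In luminal cells Heyl went to -0.056 with the block and -0.0099 without the 3 arrays (-0.077 to 0.14 with single arrays left out), and Lfng to 0.035 after median centring, 0.0057 with the block, 0.077 with the covariate and 0.13 without the 3 arrays (-0.13 to 0.13). Other causes were not tested. Same-numbered arrays of different groups deviated from their group means with correlations of -0.081 to 0.63, and arrays of different number with -0.44 to 0.43. Leaving out control basal array 4, 5 of 6 control and SSKO basal arrays and 0 of 6 control basal and luminal arrays correlated best with their own number; with it, SSKO array 3 correlated best with control basal array 4 (0.43). The labels do not say that numbers mark pairs. With the replicate block 5 genes were called in SSKO and 6962 in luminal cells, and Dtx1 passed in luminal cells (-0.71, limma adjusted p = 0.00292), as it did without control basal array 4 and no block (0.00479). Mfng could not be fitted with the dimmest 50% of probe sets dropped, since it was among them. The number of arrays limits how small a difference can be detected.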
